A study of Mus musculus with 8 samples.

Results

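The collagen genes were examined in whole mouse embryos at embryonic day 9.5, of which 4 were homozygous for K399A in Smo (mutant) and 4 carried only wild-type Smo (WT). The members are all 44 of the 41709 gene symbols measured whose symbol has the form Col, a chain type number, the letter a and a chain number. Of these, 30 reached at least 1 TPM (a level corrected for gene length and for the size of the library) in at least 4 of the 8 embryos and were compared between genotypes. Smo encodes Smoothened, the membrane protein that passes the Hedgehog signal into the cell, and K399A is an amino acid substitution in it. Parents heterozygous for the substitution were crossed, both genotypes were collected from several litters, each embryo was its own library, and the labels do not say which litter an embryo came from. The labels name no other allele, and they give no sex, somite number or collection date.

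Collagens are secreted proteins made of 3 chains wound into a triple helix, and each gene encodes a single chain. Fibrillar collagens assemble into the fibrils of mesenchyme, skin, tendon, bone and cartilage, and type 4 collagens form the sheet-like network of basement membranes under epithelia and around vessels. The remaining collagens sit on fibril surfaces, form beaded filaments, anchor epithelia or span the cell membrane. In the embryo of this age, basement membranes are already laid down throughout, while bone and cartilage have not yet formed.

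Between 59.05 and 60.42 M reads (M, mega) in each library stood behind the values, as recovered from the steps between TPM values. Smo itself was at 141 ± 12.5 TPM (SD, n = 4) in mutants and 140.2 ± 6.29 TPM in WT, and a substitution need not alter the transcript, so this is no check of the labels. The libraries of mutants 3 and 4 stood apart, being the lowest of all 8 embryos for 30.3% and 25.4% of the 13596 genes tested. Whole embryos can carry attached membranes. The summed level of 14 markers of visceral yolk sac endoderm was 1282, 798, 219.5 and 147 TPM in mutants 1 to 4, against 18.2, 44.5, 253 and 24.0 TPM in WT 1 to 4.

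The 3 pairs of type 4 genes lie head to head in the genome, so their starts are described before the values. In GENCODE M21 on build GRCm38, Col4a1 (chromosome 8, 11198423 to 11312826, minus strand) and Col4a2 (chromosome 8, 11312805 to 11449287, plus strand) overlap by 22 bases at their 5′ ends. Col4a4 and Col4a3 on chromosome 1 lie 71 bases apart, and Col4a6 and Col4a5 on the X chromosome 1308 bases apart. The stretch around the starts of Col4a1 and Col4a2 is shown on both strands because the same bases open both genes. It lies at chr8:11312801-11312830 (GRCm38.p6, RefSeq), and the 22 bases between the transcript starts are in capitals. They hold a GC box word, GGGCGG, from position 8 of Col4a2, which is read as CCGCCC on the strand of Col4a1.
Col4a2, plus strand: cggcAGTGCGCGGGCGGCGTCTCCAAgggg
Col4a1, minus strand: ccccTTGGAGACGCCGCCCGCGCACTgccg

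RefSeq windows of 250 bases before to 50 after a transcript start were at hand for 35 of the 44 collagen genes, in 38 windows. The GC box letters GGGCGG, on either strand, were in 23 of these 38 windows (60.5%), and in 35.7% of all 32851 windows of the same length. The CCAAT letters, on either strand, were in 13 of the 38 (34.2%) and in 37.4% of all windows. TATAAA, on either strand, was in 5 (13.2%) and in 13.6% of all. The GLI consensus letters GACCACCCA, on either strand, were in 0 of the 38 windows and in 0.253% of all windows. Upstream stretches of 120 bases, ending just before the start, are shown for Col1a2, Col3a1 and Col5a1, fibrillar genes that stood high in the same embryo, with any of these letters in capitals.
Col1a2, chr6:4505498-4505617, plus strand: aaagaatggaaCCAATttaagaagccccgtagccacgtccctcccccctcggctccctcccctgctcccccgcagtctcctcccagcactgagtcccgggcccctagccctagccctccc
Col3a1, chr1:45311418-45311537, plus strand: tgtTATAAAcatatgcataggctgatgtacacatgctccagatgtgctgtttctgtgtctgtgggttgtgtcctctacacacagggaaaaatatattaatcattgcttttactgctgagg
Col5a1, chr2:27886305-27886424, plus strand: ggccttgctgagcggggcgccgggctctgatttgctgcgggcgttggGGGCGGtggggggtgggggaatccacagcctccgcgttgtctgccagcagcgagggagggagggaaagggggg
The 3 stretches share none of the capitalised words, and no matches in them overlap. The stretch of Col1a2 precedes its RefSeq start and lies inside the gene as GENCODE draws it, from 4504814 to 4541544 on chromosome 6.

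Together the 44 collagen genes summed to 2198, 1340, 1431 and 1316 TPM in mutants 1 to 4, against 1224, 1421, 1111 and 1456 TPM in WT 1 to 4. Mutant 1 stood above every other embryo, and mutants 2 to 4 lay within the range of WT. In whole embryos, fewer cells of a type and less RNA per cell cannot be told apart, here or in any value that follows. The 5 genes of highest mean level, Col1a1, Col18a1, Col4a1, Col3a1 and Col4a2, held 64.5% to 68.7% of the collagen TPM in each embryo. Fibrillar genes held 50.9% ± 5.01 of collagen TPM in mutants and 47.8% ± 4.62 in WT (SD, n = 4 each). Type 4 genes held 23.0% ± 3.03 in mutants and 22.5% ± 2.05 in WT. Both shares differed by less than the spread between embryos. Fibril-associated genes held 3.54%, 3.48%, 2.94% and 2.84% in mutants 1 to 4, against 3.79%, 3.80%, 3.75% and 3.69% in WT 1 to 4. Their share was lower in every mutant than in every WT embryo, a description of 1 of 8 classes with no test made.

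**Figure D1:**
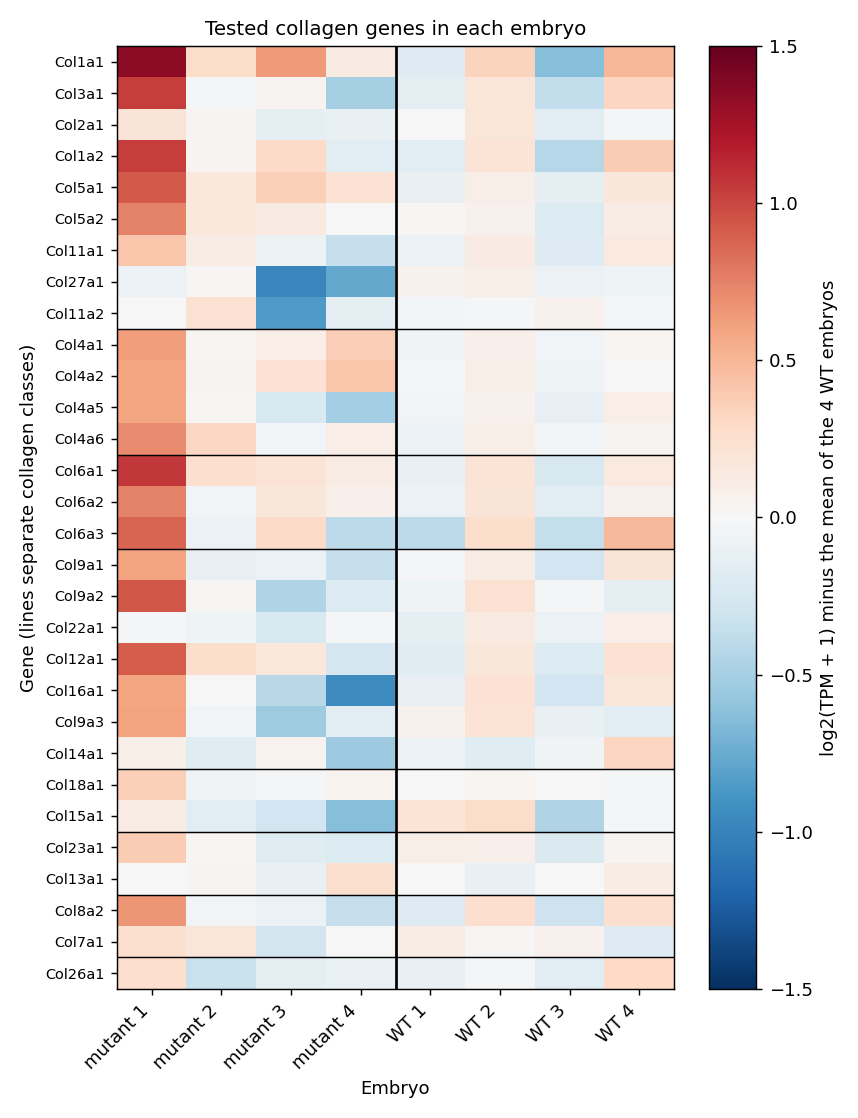
Each row is a tested collagen gene and each column an embryo, mutants left of WT, with colour giving log2(TPM + 1) minus the mean of the 4 WT embryos. The column of mutant 1 is red for most genes, and Col27a1 is blue in mutants 3 and 4.

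Fibrillar collagens were led by Col1a1, the main chain of type 1 collagen of mesenchyme and later of bone. Col1a1 (chromosome 11, 94936224 to 94953042) was at 527, 252, 324 and 229 TPM in mutants 1 to 4, against 181, 261, 133 and 294 TPM in WT 1 to 4. Its mean was 333 ± 136 TPM in mutants and 218 ± 73.6 TPM in WT (SD, n = 4 each), and mutants 1 and 3 lay above every WT embryo while mutants 2 and 4 lay within the WT range. The log2 fold change on TPM + 1, mutant minus WT, was 0.60 ± 0.30 (SE; limma adjusted p = 0.399), and it was 0.35 without mutant 1. Col1a2, the partner chain of type 1 collagen, was at 143, 70.8, 84.7 and 61.0 TPM in mutants, against 61.6, 79.8, 51.0 and 90.3 TPM in WT. Here mutant 1 alone exceeded the WT embryos, and the log2 fold change of 0.30 ± 0.26 (limma adjusted p = 0.591) came to 0.05 without it. Col3a1, which forms fibrils of vessel walls and loose mesenchyme, was at 272, 132, 136 and 93.4 TPM in mutants, against 121, 151, 103 and 166 TPM in WT. Its log2 fold change was 0.14 with all embryos and -0.16 without mutant 1 (limma adjusted p = 0.833 with all embryos), so its sign rests on that embryo.

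Col5a1 and Col5a2 encode chains of type 5 collagen, which starts fibrils and sets their width. Col5a1 (chromosome 2, 27886425 to 28039514) was at 107, 62.5, 71.8 and 65.4 TPM in mutants, against 51.6, 59.7, 50.3 and 63.1 TPM in WT. Only mutant 2 lay below the highest WT embryo, WT 4. The log2 fold change of Col5a1 was 0.41 ± 0.16 (SE), with a 95% interval of 0.06 to 0.77, an unadjusted p of 0.0267 and a limma adjusted p of 0.328 (two-sided exact permutation p = 0.0571). Without mutant 1 it was 0.25. Col5a2 was at 53.1, 35.0, 34.4 and 31.3 TPM in mutants, against 31.9, 32.7, 26.8 and 33.8 TPM in WT. Mutants 2 and 3 were only just above the highest WT embryo, and the log2 fold change of 0.26 ± 0.15 (limma adjusted p = 0.445) came to 0.10 without mutant 1.

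Of the fibrillar chains of cartilage, Col2a1 and Col11a1 had nearly equal means in both genotypes. Col2a1, the main collagen of cartilage and made earlier by the notochord and somites, was at 112, 102, 88.9 and 91.0 TPM in mutants, against 98.7, 111, 87.2 and 97.2 TPM in WT. Its log2 fold change was 0.00 with a 95% interval of -0.21 to 0.20. Col11a1, which joins type 2 collagen in cartilage fibrils, was at 12.6 ± 2.99 TPM in mutants and 12.1 ± 1.48 TPM in WT (SD, n = 4 each). Col11a2, its partner, was at 1.44, 1.84, 0.350 and 1.22 TPM in mutants, against 1.37, 1.40, 1.55 and 1.40 TPM in WT. The low value of mutant 3 set its log2 fold change of -0.19 (limma adjusted p = 0.674), which was 0.03 without that embryo.

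Col27a1, a fibrillar collagen of early cartilage, was the fibrillar gene with the lowest log2 fold change. It was at 3.94, 4.33, 1.65 and 2.08 TPM in mutants 1 to 4, against 4.47, 4.59, 3.95 and 4.02 TPM in WT. Mutants 3 and 4 were far below all other embryos, and mutant 1 lay just under the lowest WT embryo and mutant 2 within the WT range. The log2 fold change was -0.46 ± 0.22 (SE; unadjusted p = 0.0650, limma adjusted p = 0.389), and it was -0.03 without mutants 3 and 4, whose libraries stood apart. What those libraries contribute to Col27a1 beyond this was not tested.

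**Figure D2:**
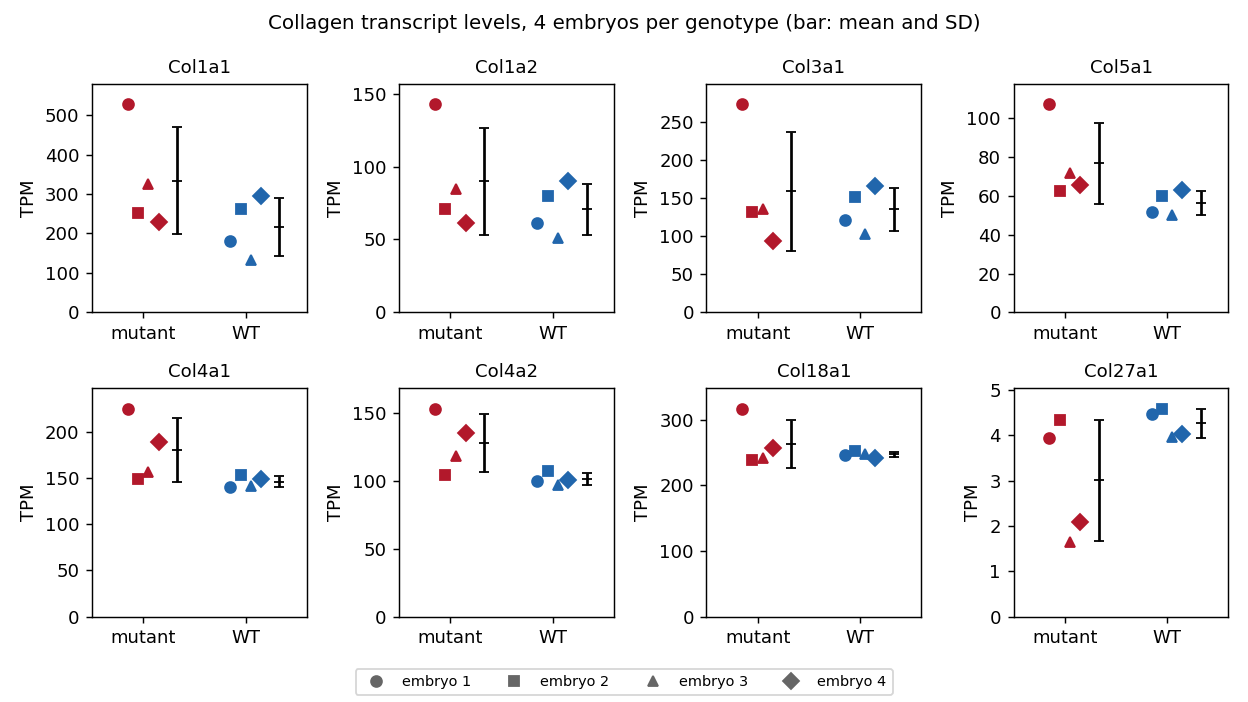
Points give TPM of 8 collagen genes in each embryo, mutants left and WT right, with the embryo number shown by the shape and bars giving the mean and SD over 4 embryos. Mutant 1 is the highest embryo for all but Col27a1, for which mutants 3 and 4 are the lowest.

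Among type 4 collagens, Col4a1 and Col4a2, the chains found in nearly every basement membrane, were on average higher in mutants. Col4a1 was at 225, 149, 156 and 189 TPM in mutants 1 to 4, against 140.2, 153, 141 and 149 TPM in WT 1 to 4. Col4a2 was at 154, 104, 118 and 136 TPM in mutants, against 100.1, 108, 96.9 and 101.0 TPM in WT. In both genes, mutants 1, 3 and 4 exceeded every WT embryo and mutant 2 lay just below WT 2. The log2 fold change of Col4a2 was 0.32 ± 0.11 (SE), with a 95% interval of 0.08 to 0.56, an unadjusted p of 0.0136 and a limma adjusted p of 0.304 (two-sided exact permutation p = 0.0571). For Col4a1 it was 0.28 ± 0.12, with an interval of 0.02 to 0.54, an unadjusted p of 0.0370 and a limma adjusted p of 0.345 (two-sided exact permutation p = 0.0571). Without mutant 1 these were 0.23 and 0.17. WT embryos were close to each other, with an SD of 6.15 TPM for Col4a1 and 4.60 TPM for Col4a2, against 34.8 and 21.3 TPM in mutants.

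Col4a5 and Col4a6 encode the chains of a second type 4 network that is laid down in fewer tissues. Col4a6 was at 20.2, 15.2, 11.6 and 13.0 TPM in mutants, against 11.2, 12.8, 11.7 and 12.4 TPM in WT, a log2 fold change of 0.27 ± 0.15 (limma adjusted p = 0.420) that came to 0.13 without mutant 1. Col4a5 was at 47.5, 31.5, 26.3 and 21.5 TPM in mutants, against 30.2, 32.6, 28.6 and 33.5 TPM in WT. Mutant 1 was the highest and mutants 3 and 4 the lowest of the 8 embryos for Col4a5, and its log2 fold change was -0.03 (limma adjusted p = 0.950). Col4a3 and Col4a4, the chains of the mature kidney filter, reached at most 0.0938 and 0.131 TPM in any embryo and were not tested.

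Type 6 collagens form beaded filaments that link cells to fibrils. Col6a1 was at 15.5, 8.44, 8.08 and 7.50 TPM in mutants, against 6.31, 8.10, 5.67 and 7.74 TPM in WT. Mutant 1 stood well above all others, and the log2 fold change of 0.41 ± 0.21 (SE; limma adjusted p = 0.405) was 0.19 without it. Col6a2 averaged 4.75 ± 1.51 TPM in mutants and 3.80 ± 0.547 TPM in WT (SD, n = 4 each; log2 fold change 0.24, limma adjusted p = 0.527), and its log2 fold change was 0.07 without mutant 1. Col6a3 ranged from 1.28 to 4.49 TPM in mutants and from 1.28 to 3.20 TPM in WT. The later-arising chains Col6a4, Col6a5 and Col6a6 rested on 0 to 10 reads per library.

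Collagens that sit on fibril surfaces showed no shared direction, with 3 of 7 tested genes above 0 and 4 below. Col9a1 and Col9a2, chains of type 9 collagen on cartilage fibrils, had log2 fold changes of 0.01 and 0.07, which were -0.18 and -0.22 without mutant 1. Col12a1, of dense connective tissue, averaged 4.27 ± 1.85 TPM in mutants and 3.21 ± 0.661 TPM in WT (SD, n = 4 each), and its log2 fold change of 0.27 came to 0.06 without mutant 1. Col14a1, which regulates fibril growth, averaged 2.46 ± 0.663 TPM in mutants and 2.81 ± 0.614 TPM in WT. Neither passed the test (limma adjusted p = 0.575 and 0.691).

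The multiplexins Col18a1 and Col15a1 belong to basement membranes and release fragments that act on vessels. Col18a1 was the second most abundant collagen transcript, at 317, 238, 242 and 257 TPM in mutants and 247, 253, 248 and 242 TPM in WT. WT embryos differed by an SD of only 4.24 TPM, and the log2 fold change of 0.08, with a 95% interval of -0.11 to 0.27, was -0.01 without mutant 1. Col15a1 was at 7.81, 6.26, 5.70 and 4.27 TPM in mutants, against 8.44, 8.92, 4.96 and 7.02 TPM in WT, with a log2 fold change of -0.25 ± 0.20 (SE; limma adjusted p = 0.557). Of the chains that span the membrane, Col23a1 was at 22.6 ± 4.69 TPM in mutants and 22.2 ± 2.18 TPM in WT, and Col13a1, found at cell contacts, at 5.18 ± 0.645 TPM in mutants and 4.99 ± 0.386 TPM in WT. Col26a1 was at 31.2 ± 5.65 TPM in mutants and 32.9 ± 5.22 TPM in WT. The other tested genes, Col22a1, Col8a2, Col16a1, Col9a3 and Col7a1, had means of 1.05 to 4.36 TPM in mutants and 0.983 to 4.08 TPM in WT, and limma adjusted p values of 0.727 to 0.951.

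The 14 genes left out of the test were low in both genotypes. Col24a1, just outside the filter, reached 1 TPM in 2 embryos, and Col7a1, just inside it, in 4. In 8 of them no embryo reached 0.2 TPM, among them Col10a1, the collagen of growth plate cartilage, with 0 to 3 reads per library. Col17a1, which anchors skin epithelium, was at 0.276 to 0.393 TPM in mutants and 0.376 to 0.718 TPM in WT. Col28a1 was the single collagen gene whose genotypes did not overlap, at 0.0102 to 0.0321 TPM in mutants and 0.0325 to 0.0879 TPM in WT, but these values rest on 1 to 8 reads per library.

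Across the 30 tested collagen genes, limma called 0 at an adjusted p under 0.05, as it did among all 13596 genes (0.0% called), with a smallest adjusted p of 0.304 among collagens. At an unadjusted p under 0.05 there were 3 higher, Col4a2, Col5a1 and Col4a1, where 5.55% of all genes were higher at that threshold, and 0 lower, where 8.0% of all genes were lower. By the exact permutation test per gene, whose smallest p for 4 against 4 is 0.0286, no gene of the table passed after adjustment (smallest adjusted permutation p = 0.383). A pass would need most genes of the table to sit at that smallest p, so this outcome says little about single genes. Of the 30, 20 had a log2 fold change above 0 and 10 below, whereas 37.7% of all genes were above 0. The median was 0.05, against -0.05 over all genes tested, but it was -0.08 without mutant 1, against -0.06 over all genes. Fully separate groups were seen for 0 of the 30, where 3.63% of all genes were separate and higher and 3.82% separate and lower.

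**Figure D3:**
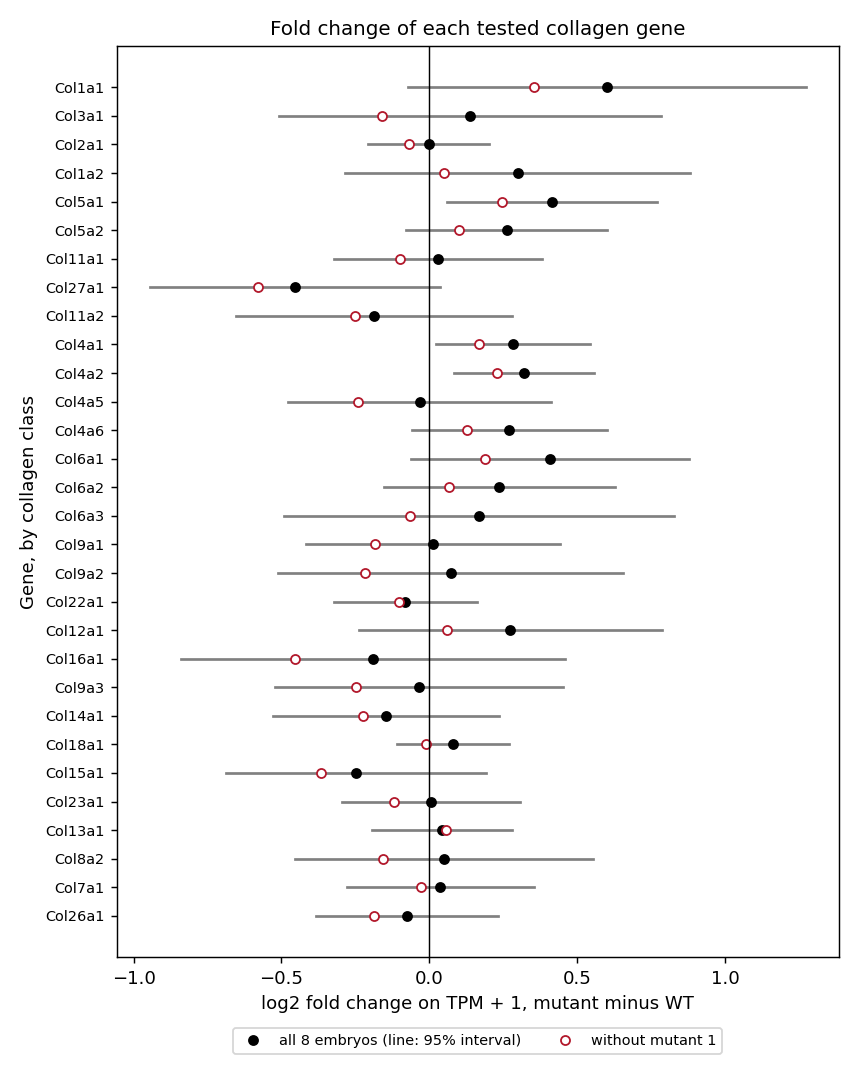
Filled points give the log2 fold change of each tested collagen gene on TPM + 1, mutant minus WT, with 95% intervals, and open points give it without mutant 1. The intervals of Col5a1, Col4a1 and Col4a2 lie above 0, and leaving out mutant 1 moves most points to the left.

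Much of the difference between the group means came with a single embryo. Mutant 1 had the highest value of all 8 embryos for 23 of 30 tested collagens (76.7%), against 27.0% of all genes tested, and it was the lowest for 0. Mutant 4 was the lowest for 10, where it was the lowest for 25.4% of all genes, and WT 3 for 9, where it was the lowest for 5.83%. Single WT embryos also moved the fold changes. For Col1a1, Col1a2 and Col3a1 the log2 fold changes were 0.388, 0.155 and 0.016 without WT 3, and 0.767, 0.425 and 0.245 without WT 4. The SD of log2(TPM + 1) was larger among mutants than among WT for 28 of 30 collagens, against 81.3% of all genes. Summed fibrillar TPM was 1238, 674.5, 754 and 585 in mutants and 564, 716.5, 469 and 766 in WT. Mutant 1 was above all, and the means of 813 in mutants and 629 in WT became 671 and 629 without it. Summed type 4 TPM was 446, 300, 312 and 360 in mutants and 282, 306.5, 279 and 295.5 in WT, and its mean without mutant 1 was 324, against 291 in WT.

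Some marker lists of other cell types were also highest in mutant 1 and others were not, and their part in the collagen levels was not tested. Mutant 1 had the highest summed level of yolk sac markers, of 8 heart muscle markers, of 8 surface ectoderm markers and of 10 endothelial markers. The heart muscle sum was 3605 TPM in mutant 1, between 1775 and 2277 TPM in mutants 2 to 4, and between 1154 and 1676 TPM in WT. The surface ectoderm sum was 1076 TPM in mutant 1, between 584 and 725 TPM in mutants 2 to 4, and between 513 and 677 TPM in WT. Krt8 and Krt18 gave most of that sum, at 520.5 and 369 TPM in mutant 1. Of these 8 markers 4 had a log2 fold change above 0, and the median was -0.05, and -0.28 without mutant 1. The endothelial sum was 330.5 TPM in mutant 1, between 243 and 281 TPM in mutants 2 to 4, and between 219.9 and 261 TPM in WT. Of the 10 endothelial markers 9 had a log2 fold change above 0, 7 were higher at an unadjusted p under 0.05 and 6, among them Cdh5, Kdr, Tek and Erg, were higher in every mutant than in every WT embryo. Of all genes tested, 37.7% were above 0, 5.55% were higher at that threshold and 3.63% were separate and higher. These shares are the background for the other marker lists too. The median log2 fold change of the endothelial list was 0.27, and 0.20 without mutant 1, so this difference was also present in mutants 2 to 4. It was not alone in this. Of the 8 heart muscle markers 7 were above 0, 6 were higher at that threshold and 5 were separate and higher. Their median was 0.66, and 0.47 without mutant 1. Of the 13 tested yolk sac markers 13 were above 0, 12 were higher at that threshold and 0 were separate. Their median was 2.71, and 2.19 without mutant 1. The sum of 11 genes expressed by parietal endoderm, an outer layer that lays down a thick basement membrane, was 715 TPM in mutant 1, between 451 and 507 TPM in mutants 2 to 4, and between 408 and 479.6 TPM in WT. Sparc, which many tissues make, gave 418 TPM of the sum in mutant 1 and between 213 and 267.5 TPM in WT. Trophoblast and decidua markers summed to 125 to 419 TPM in mutants and 71.2 to 116 TPM in WT, while Tpbpa of that list was at 0 in all 4 WT and at most 0.412 TPM in mutants. Hand1 gave most of this sum in every embryo but mutant 2, with 87.5 to 167.5 TPM in mutants and 60.9 to 87.7 TPM in WT. Prl8a2 of the list overlapped, at 49.2, 291, 22.2 and 7.66 TPM in mutants 1 to 4, against 15.3, 1.20, 9.89 and 1.73 TPM in WT 1 to 4. The 10 mesenchyme markers summed to 477, 415, 493 and 527 TPM in mutants and 447, 397, 410 and 536 TPM in WT. Mutant 1 did not lead this sum. It was the highest embryo for Pdgfrb, Prrx2, Tbx18 and Twist2, and the lowest for Meox1, Tcf15 and Foxc2, at 66.5, 9.99 and 19.7 TPM. Of the 10 mesenchyme markers 7 had a log2 fold change above 0, 3 were higher at an unadjusted p under 0.05, and Pdgfra was higher in every mutant than in every WT embryo. Notochord and floor plate markers, 6 in all, each had a log2 fold change below 0, at sums of 77.3 to 119 TPM in mutants and 113 to 139 TPM in WT. The 6 primitive red cell markers summed to 27370, 32980, 51900 and 20390 TPM in mutants 1 to 4, against 14300, 29040, 39200 and 49270 TPM in WT 1 to 4. Mutant 3 was the highest for that sum.

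Ratios of partner chains were compared because a ratio within an embryo is not altered where both genes rise or fall by the same factor. A ratio can still shift with the level or with the mix of tissues in the embryo. The ratio of Col1a1 to Col1a2 TPM was 3.70, 3.56, 3.83 and 3.75 in mutants 1 to 4, against 2.94, 3.27, 2.62 and 3.26 in WT 1 to 4. The groups did not overlap, and the means were 3.71 ± 0.113 in mutants and 3.02 ± 0.313 in WT (SD, n = 4 each). Among WT, the embryos of lowest Col1a1, WT 3 at 133.5 TPM and WT 1 at 181 TPM, also had the lowest ratios. Ratios among mutants did not follow the Col1a1 level. The ratio of Col4a5 to Col4a6 was 2.35, 2.08, 2.26 and 1.66 in mutants, against 2.69, 2.55, 2.45 and 2.70 in WT, again without overlap, at 2.09 ± 0.307 in mutants and 2.60 ± 0.123 in WT. These were 2 of 7 ratios examined. Among all 435 ratios of 2 tested collagen genes, 36 (8.28%) did not overlap between genotypes, and no test was made of the ratios. With each embryo left out in turn, the difference of the mean Col1a1 to Col1a2 ratio stayed between 0.551 and 0.771, and that of Col4a5 to Col4a6 between -0.595 and -0.365.

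Col4a1 to Col4a2 was 1.40 ± 0.0621 in mutants and 1.44 ± 0.0325 in WT (SD, n = 4 each), with overlapping groups. Col5a1 to Col5a2 was 2.00 ± 0.144 in mutants and 1.80 ± 0.123 in WT, and Col6a1 to Col6a2 2.06 ± 0.243 in mutants and 1.83 ± 0.0828 in WT, each with overlapping groups. Col9a1 to Col9a2 was 3.28 ± 0.842 in mutants and 3.38 ± 0.666 in WT. Col3a1 and Col5a2, tail to tail and 24614 bases apart on chromosome 1, had a ratio of 3.96 ± 0.887 in mutants and 4.28 ± 0.567 in WT. The size of a ratio depends on the lengths used for TPM, 6563 bases for Col1a1 and 12426 for Col1a2 as merged exons, and is no count of chains in the protein.

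**Figure D4:**
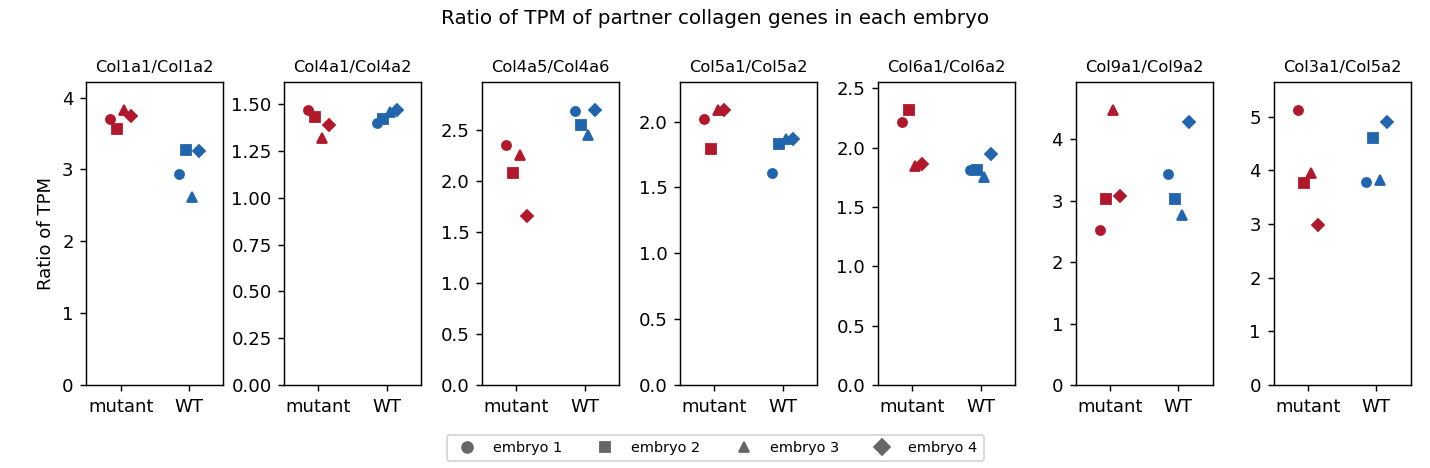
Each panel gives the ratio of TPM of a pair of collagen genes in each embryo, mutants left and WT right. The Col1a1 to Col1a2 ratio is higher in every mutant than in every WT embryo and the Col4a5 to Col4a6 ratio lower, while the other 5 pairs overlap.

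Genes that fold, modify and cut collagen were taken from lists of the collagen pathway. Of 23 tested genes of procollagen folding and modification, 18 had a log2 fold change above 0 and 5 below, where 37.7% of all genes were above 0, and 0 passed the test. The median of this list was 0.15, and 0.07 without mutant 1. At an unadjusted p under 0.05, 6 of the 23 were higher, where 5.55% of all genes were, and 3 were separate and higher, where 3.63% of all genes were. These shares of all genes are the background for the other pathway lists too. P4ha1, a prolyl hydroxylase subunit that stabilises the triple helix, was at 72.8, 64.0, 71.5 and 66.5 TPM in mutants, against 57.9, 60.2, 58.5 and 59.9 TPM in WT. Its groups did not overlap, and its log2 fold change came to 0.21 ± 0.05 (SE), with a limma adjusted p of 0.281. P4ha2, a second such subunit, was at 27.2, 17.9, 18.0 and 18.2 TPM in mutants, against 15.9, 15.7, 13.0 and 16.3 TPM in WT, also without overlap (limma adjusted p = 0.317). P3h2, a prolyl 3-hydroxylase that acts on type 4 collagen, averaged 24.1 ± 4.56 TPM in mutants and 17.7 ± 2.36 TPM in WT (limma adjusted p = 0.301). Creb3l1, a transcription factor of collagen secretion, was at 40.2 TPM in mutant 1, between 17.9 and 20.04 TPM in mutants 2 to 4, and between 11.2 and 17.9 TPM in WT (limma adjusted p = 0.335).

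Of 10 tested genes of procollagen cleavage and crosslinking, 6 were above 0 and 4 below, and 0 passed. At an unadjusted p under 0.05, 2 of the 10 were higher, and 2 were separate and higher. Loxl2, an enzyme that crosslinks collagen and acts on type 4 networks, was at 124, 99.8, 104 and 109 TPM in mutants, against 77.8, 89.1, 91.5 and 83.0 TPM in WT. Its log2 fold change came to 0.35 ± 0.08 (SE), with a limma adjusted p of 0.281. Without mutant 1 the fold change was 0.29. Adamts2, which removes the N-terminal propeptide of fibrillar procollagens, was at 4.82, 3.76, 3.83 and 2.65 TPM in mutants, against 2.08, 2.12, 2.08 and 2.45 TPM in WT. Its log2 fold change was 0.57 ± 0.14 (limma adjusted p = 0.281) and 0.46 without mutant 1. Neither gene's groups overlapped. Loxl1, a crosslinking enzyme better known for elastic fibres, averaged 11.9 ± 4.33 TPM in mutants and 8.25 ± 1.15 TPM in WT. Bmp1, which removes the C-terminal propeptide, averaged 15.7 ± 1.80 TPM in mutants and 17.5 ± 1.12 TPM in WT.

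Other basement membrane genes stood beside type 4 collagens. Of 12 tested, 10 were above 0 and 2 below, and 0 passed. The median log2 fold change was 0.19, and 0.08 without mutant 1. Of the 12, 4 were higher at an unadjusted p under 0.05 (5.55% of all genes) and 3 were separate and higher (3.63% of all genes). Lamc1, the gamma chain of most laminins, was at 120, 94.7, 104 and 116 TPM in mutants, against 76.6, 73.2, 83.1 and 74.6 TPM in WT. Its log2 fold change came to 0.49 ± 0.08 (SE), with a limma adjusted p of 0.203. Without mutant 1 the fold change was 0.44. Hspg2, which encodes perlecan, and Nid2, a linker between laminin and type 4 collagen, were the other separate genes, at 68.8 ± 7.65 and 114 ± 16.8 TPM in mutants and 51.8 ± 4.57 and 86.2 ± 3.22 TPM in WT (limma adjusted p = 0.281 for each). Lamb1, a laminin beta chain, averaged 59.0 ± 10.1 TPM in mutants and 47.1 ± 3.42 TPM in WT.

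Receptors, proteoglycans and proteases of collagen gave 0 calls as well. Of 7 tested receptors 4 were above 0 and 3 below, with Itgb1, the shared integrin beta chain, at 259 ± 34.3 TPM in mutants and 231 ± 5.63 TPM in WT. Among 5 tested proteoglycans that bind collagen, Lum, which spaces fibrils, was at 172, 78.2, 87.1 and 54.9 TPM in mutants, against 65.4, 98.0, 51.3 and 100.5 TPM in WT, again highest in mutant 1. Bgn, a relative of it, averaged 12.5 ± 1.81 TPM in mutants and 9.97 ± 1.101 TPM in WT (limma adjusted p = 0.344). Of 9 tested proteases and inhibitors, 8 were above 0, with Timp3, an inhibitor held in the matrix, at 17.6 ± 1.35 TPM in mutants and 14.9 ± 1.56 TPM in WT (limma adjusted p = 0.352). Of 7 tested cartilage and sclerotome genes, 4 were above 0 and 3 below, with a median of 0.02, and Sox9, a direct activator of Col2a1, was at 31.1 ± 3.27 TPM in mutants and 32.9 ± 3.98 TPM in WT.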

How the data were processed

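RNA of 4 mutant and 4 WT embryos was sequenced from TruSeq libraries on a NovaSeq instrument, per the labels' protocols. The authors deposited TPM values per gene symbol, with the same total in each library. The submitters' processing notes name GRCm38 and mm10. No aligner, counter, annotation release or strand setting could be read from the labels or the table. All 8 columns were matched to embryos by name. Reads were recovered from the TPM steps with merged exon lengths of GENCODE M21, whole within 0.02 reads in all 8 libraries for 97.7% of 22992 symbols, though not for Col5a1, Col13a1 and Col25a1. They give depth only and entered no test.

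Genes with 1 TPM in at least 4 embryos were compared by limma (version 3.58.1, R version 4.3.3) on log2(TPM + 1), with genotype as the term, empirical Bayes moderation with a trend, two-sided tests and Benjamini-Hochberg adjustment over all 13596 genes. A fold change on TPM + 1 understates that of low genes. The fit was tested on simulated data. Exact permutation used all 70 assignments of 4 against 4. Collagen members and gene lists were chosen with earlier results of these data known.

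The rule for named genes took all tested fibrillar and type 4 genes, among the other collagens the 8 of highest level and the 6 of smallest p, and from each pathway list the 4 of smallest p. Other genes were named after their values were seen. Alternatives were other pseudocounts, filters and scaling, no trend, array weights, the replicate number as a block, a yolk sac covariate, leaving out each embryo, and leaving out mutants 3 and 4. For chain ratios and pathway lists, these were chosen after seeing the data. Strand of counting being unknown, reads of overlapping genes cannot be told apart, which touches at most 6.07% of the exon length of a tested collagen (Col9a3).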

Additional observations from a re-analysis of the deposited data

Results flagged for a closer look

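Each group of 4 was examined for an embryo far from the other 3, in 30 tested collagen genes and both genotypes, 60 groups in all, of which chance alone would single out about 1 in 20. It singled out 2, both for mutant 1. Col5a2 was at 53.1 TPM in mutant 1, against 31.3 to 35.0 TPM in the other mutants. Col6a1 was at 15.5 TPM in mutant 1, against 7.50 to 8.44 TPM in the other mutants.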

How the results depend on the processing

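Under every alternative run, 0 tested collagens and 0 pathway list genes were called at an adjusted p under 0.05. Among all genes 3 were called without mutants 3 and 4, and between 0 and 1 with each embryo left out. Collagens higher at an unadjusted p under 0.05, 3 in all, numbered 6 under median-ratio scaling, 5 without mutants 3 and 4, 0 with the yolk sac covariate and 1 to 5 with each embryo left out. Lower ones, 0 in all, numbered 2 without a filter (Col17a1 and Col28a1), 1 with array weights, 1 with the replicate block and 1 with the yolk sac covariate (Col27a1), and 0 to 1 with each embryo left out. With the covariate the log2 fold changes of Col4a2, Col5a1 and Col4a1 were 0.323, 0.285 and 0.225, against 0.319, 0.415 and 0.282 without it. The covariate was itself higher in every mutant than in WT 1, 2 and 4. Why the count of higher collagens fell with it was not tested. Over all genes 1220, 1350 and 223 were higher under median-ratio scaling, without mutants 3 and 4 and with the covariate (522 to 922 with each embryo left out), and 2818, 360 and 2012 lower with array weights, without mutants 3 and 4 and with the covariate (567 to 2329). The median log2 fold change of tested collagens was -0.053 with array weights, -0.072 with the covariate and -0.084 to 0.141 with each embryo left out. With array weights the log2 fold change was -0.054 for Col3a1, -0.087 for Col11a1, -0.075 for Col23a1, -0.101 for Col9a1, -0.126 for Col9a2 and -0.179 for Dcn. With the covariate it was -0.192 for Col3a1, -0.176 for Col11a1, -0.003 for Col4a6, -0.052 for Col12a1, -0.029 for Col18a1, -0.117 for Col23a1, -0.153 for Col9a1, -0.436 for Col9a2, -0.344 for Dcn, -0.01 for Lum and 0.025 for Sox9. Under median-ratio scaling it was 0.041 for Col2a1 and 0.01 for Col4a5. Without mutants 3 and 4 it was 0.119 for Col2a1, 0.115 for Col11a2, 0.306 for Col4a5, 0.0 for Ddr1, 0.104 for Itga10 and 0.164 for Optc, and differences of mean ratio were 0.00868 for Col4a1 to Col4a2, 0.443 for Col6a1 to Col6a2 and 0.166 for Col3a1 to Col5a2. With each embryo left out, signs turned for Col3a1 (-0.16 to 0.352), Col11a1 (-0.1 to 0.151), Col2a1 (-0.068 to 0.056), Col11a2 (-0.324 to 0.033), Col4a5 (-0.242 to 0.126), Col13a1 (-0.025 to 0.092), Col18a1 (-0.012 to 0.125), Col23a1 (-0.119 to 0.077), Col26a1 (-0.188 to 0.025), Col9a1 (-0.184 to 0.131), Col9a2 (-0.216 to 0.245), Dcn (-0.141 to 0.452), Ddr1 (-0.105 to 0.014), Lum (-0.074 to 0.469), Optc (-0.141 to 0.138), the sum of collagens neither fibrillar nor type 4 (-0.064 to 0.12) and the ratios Col9a1 to Col9a2 (-0.505 to 0.201) and Col3a1 to Col5a2 (-0.713 to 0.00238). The cause of these changes was not tested. Over all genes tested, deviations from the group mean correlated between same-numbered embryos at -0.0618, 0.0398, -0.194 and -0.245. No mutant correlated best with the WT embryo of its own number. Whether the numbers mark a shared litter or batch cannot be told from these values. Adjusted p over the limma alternatives ranged from 0.104 to 0.579 for Col4a2, 0.151 to 0.582 for Col5a1 and 0.132 to 0.583 for Col4a1.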
